A study of Mus musculus with 35 samples.

Results

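The 8 Gimap genes encode GTPases of immunity-associated proteins. They were taken by symbol, as Gimap1, Gimap3, Gimap4, Gimap5, Gimap6, Gimap7, Gimap8 and Gimap9, and are 8 of the 38924 genes measured. All 8 were found once in the files and all 8 lie in a single cluster. RNA was sequenced from sorted CD8 T cells of C57BL/6 mice in 35 libraries of 7 groups. Brain cells held for 2 h with PMA, a phorbol ester, and ionomycin, which lets calcium into the cell (agents that activate T cells without their receptor), came from aged females (n = 5) and aged males (n = 4). Unstimulated brain cells came from aged females (n = 5), aged males (n = 6) and young males (n = 5). Spleen cells came from aged males, stimulated in the same way (n = 5) and unstimulated (n = 5). Every group was sorted on CD3e, CD8, high CD44 and low CD62L, the surface phenotype of effector memory T cells. All mice are aged below unless called young, and spleen groups are always male. The labels give no age in weeks or months, and they do not say whether the libraries of a group came from separate animals, so what the p-values set a difference against may be technical spread alone.

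GIMAP proteins share a GTP-binding domain and are found mainly in lymphocytes, where most of them sit on membranes such as those of the endoplasmic reticulum, the Golgi and lysosomes. They are best known for keeping resting T cells alive: loss of GIMAP5 in rats and mice, or of GIMAP1 in mice, depletes peripheral T cells. GIMAP6 binds a protein of the autophagy machinery, GABARAPL2, and GIMAP3, GIMAP4 and GIMAP5 have been reported to bind members of the BCL2 family of death regulators.

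The cluster spans 123.6 kb of chromosome 6, from 48647234 to 48770851 on GRCm38, the assembly also called mm10, with gene ends from GENCODE M21. In order of position it holds Gimap8 (48647234 to 48660875), Gimap9 (48676129 to 48679114), Gimap4 (48684549 to 48692060), Gimap6 (48701582 to 48708225), Gimap7 (48718621 to 48724636), Gimap1 (48739054 to 48743795), Gimap5 (48746197 to 48754210) and Gimap3 (48764464 to 48770851). All 8 are protein-coding genes. Gimap6 and Gimap3 lie on the minus strand and the other 6 on the plus strand. Gimap7, Gimap1 and Gimap5 overlap a readthrough gene, Gm28053, and Gimap1 overlaps an antisense transcript, Gimap1os. The use of strand is not given in the sources used here, so reads of these overlapping genes cannot be told apart with certainty. Gimap3 and Gimap5 are close copies of each other. RSEM gave both a count that was not whole in 26 of 35 libraries, while their sum was not whole in 7 of 35, with a tolerance of 0.015. Their single values, and those of Gimap1, not whole in 23 of 35 libraries, are therefore less certain than those of Gimap4, Gimap7 and Gimap9, which were whole in all 35.

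**Figure D1:**
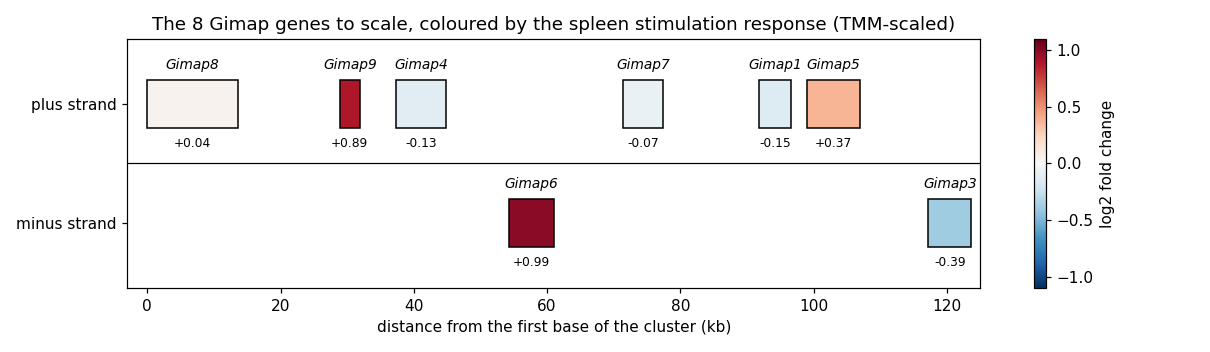
Map of the 8 Gimap genes to scale, in kb from the first base of the cluster, with plus-strand genes above and minus-strand genes below the line. Fill colour and the number under each box give the log2 fold change of stimulated over unstimulated spleen on TMM-scaled totals; Gimap6 (0.99) and Gimap9 (0.89) stand out and are not next to each other.

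The 250 bases before the start of 4 members are shown because these are the genes whose shares of the family's counts did not overlap between stimulated and unstimulated spleen cells, Gimap6 and Gimap9 with a larger share after stimulation and Gimap4 and Gimap3 with a smaller one. Sequences are from RefSeq on GRCm38.p6 and run 5′ to 3′ on the strand of the gene. Capitals mark matches, on either strand, to short motifs of factors that act in T cells: AP-1 (TGANTCA), NFAT (GGAAAA), NF-kB, Egr (GCGTGGG), ETS (AGGAAG), RUNX (TGTGGT) and FOXO (TGTTTAC). The windows are chr6:48708245-48708494 (minus strand) for Gimap6, chr6:48675885-48676134 (plus strand) for Gimap9, chr6:48684328-48684577 (plus strand) for Gimap4 and chr6:48770852-48771101 (minus strand) for Gimap3.
Gimap6: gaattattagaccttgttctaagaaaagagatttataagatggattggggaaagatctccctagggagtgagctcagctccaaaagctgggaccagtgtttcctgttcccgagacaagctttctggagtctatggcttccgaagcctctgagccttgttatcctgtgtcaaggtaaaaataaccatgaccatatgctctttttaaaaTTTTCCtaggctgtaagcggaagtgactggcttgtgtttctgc
Gimap9: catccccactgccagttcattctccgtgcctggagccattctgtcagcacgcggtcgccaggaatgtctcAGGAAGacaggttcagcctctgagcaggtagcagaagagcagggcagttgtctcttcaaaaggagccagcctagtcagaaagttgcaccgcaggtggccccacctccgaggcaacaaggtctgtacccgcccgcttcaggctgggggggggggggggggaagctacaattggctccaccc
Gimap4: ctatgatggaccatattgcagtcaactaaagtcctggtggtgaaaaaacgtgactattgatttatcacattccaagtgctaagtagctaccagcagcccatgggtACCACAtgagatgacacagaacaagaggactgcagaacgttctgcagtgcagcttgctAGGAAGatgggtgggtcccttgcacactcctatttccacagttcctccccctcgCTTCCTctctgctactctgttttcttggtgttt
Gimap3: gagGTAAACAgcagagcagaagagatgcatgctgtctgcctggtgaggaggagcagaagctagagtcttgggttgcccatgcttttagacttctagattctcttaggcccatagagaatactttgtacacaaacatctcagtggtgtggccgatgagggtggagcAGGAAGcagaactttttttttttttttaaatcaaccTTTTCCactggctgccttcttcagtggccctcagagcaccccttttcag
All 8 members had a promoter in RefSeq, and Gimap8 had 2 starts, so 9 windows were searched. The ETS letters AGGAAG were present in 7 of 8 members, against 29.5% of the 32851 promoter windows of all genes. Gimap6 was the member without these exact letters, and other forms of an ETS site were not searched. NFAT letters were found in 3 members, Gimap6, Gimap3 and Gimap1, against 20.4% of all windows. RUNX letters were found in Gimap4, Gimap7 and Gimap1, against 14% of all windows, and FOXO letters in Gimap3 alone, against 3.17%. None of the 8 had the AP-1, NF-kB or Egr letters, which 6.75%, 0.356% and 4.3% of all windows held. No matches to different motifs overlapped in these windows, and a match describes the letters only.

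Libraries held between 1.16 and 24.97 M counts. Mitochondrially encoded genes took 58.6% ± 10.8 of the counts in stimulated female brain (SD, n = 5) and 56.3% ± 13.2 in stimulated male brain (n = 4), against means of 8.88% to 16.3% in the other 5 groups. Genes with at least 1 count numbered 2271 to 6769 in stimulated brain libraries and 6456 to 15174 in all others. Summed markers of T cells (14 genes, Cd8a and Cd3e among them) lay at 602 to 1078 CPM, counts scaled to the library's total, in stimulated female brain and 471 to 928 CPM in stimulated male brain, with Trbc2 at 0 in both. The same sum lay between 4252 and 5970 CPM in unstimulated brain, 2096 to 3505 CPM in stimulated spleen and 4085 to 5236 CPM in unstimulated spleen. Titles of the 10 spleen libraries and of 2 stimulated female brain libraries are written without hyphens and those of the other 23 with hyphens. What that form marks is not stated, and between brain and spleen it cannot be told apart from the tissue. In bulk RNA, fewer cells of a type and less RNA per cell cannot be told apart.

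Summed over the family, the 8 genes were lowest in stimulated brain, with 183, 366, 531, 567 and 814 CPM of each library's own total in females and 18.2, 207, 208 and 1006 CPM in males. On this scale all 9 stimulated brain libraries lay below the lowest of the other 26. The 4 unstimulated groups had means between 2218.5 and 2599.8 CPM. The sum ran from 2119 through a median of 2612 to 3087 in unstimulated female brain, from 1660 through 2219 to 2719 in unstimulated male brain and from 1550 through 2590 to 3095 in unstimulated young male brain. Stimulated spleen lay at 1587, 1766, 1943, 2131 and 2155 CPM, and unstimulated spleen at 2369, 2500, 2506, 2587 and 3037 CPM, so every stimulated spleen library was below every unstimulated one on this scale. On totals scaled by TMM over all 35 libraries the order was the other way, with means of 1830 in stimulated and 1541 in unstimulated spleen. On totals without mitochondrial genes the means were 1162 and 929.8 CPM in stimulated female and male brain, 2894, 2462 and 2684 CPM in unstimulated female, male and young male brain, and 2286 and 2945 CPM in stimulated and unstimulated spleen. Stimulated male brain replicate 21 was not apart from the unstimulated libraries on these other totals. Scaled by TMM over all 35 libraries it was at 1796, where the lowest unstimulated female brain library was at 1401. Without mitochondrial genes it was at 2874 CPM, where the lowest unstimulated male brain library was at 1840 CPM.

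**Figure D2:**
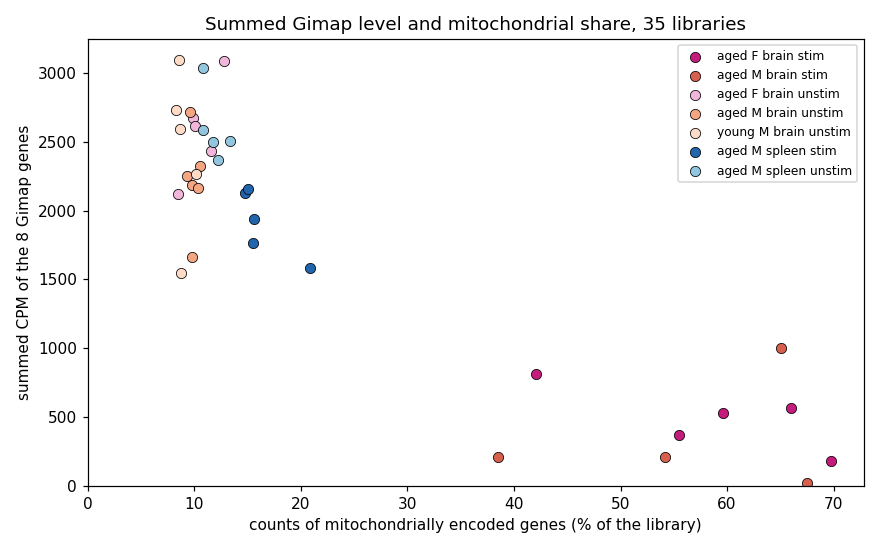
Summed CPM of the 8 Gimap genes against the percentage of counts from mitochondrially encoded genes, 1 point for each of 35 libraries, coloured by group. The 9 stimulated brain libraries have mitochondrial shares of 38.5% to 69.7% and sums of at most 1006 CPM; the part of the one in the other was not tested.

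Compared per length, in the authors' length-scaled TPM values, the member with the highest mean was Gimap6 in the stimulated groups and Gimap4 in the unstimulated ones. In stimulated spleen Gimap6 averaged 472 ± 78.1 TPM and Gimap4, a GTPase linked to T cell death, 416 ± 127 TPM (SD, n = 5), with overlapping ranges of 407 to 602 TPM and 233 to 543 TPM. By mean, Gimap6 was also first and Gimap9 last in both stimulated brain groups, at 78.9 ± 40.9 TPM and 2.05 ± 3.67 TPM in females and at 112 ± 123 TPM and 0 TPM in males. Gimap4 was second there, at 70.4 ± 67.8 TPM in females and 63.4 ± 114 TPM in males. Its ranges, 1.14 to 150 TPM and 0 to 234 TPM, overlapped those of Gimap6, 30.4 to 129 TPM and 0 to 224 TPM. The order of Gimap6 and Gimap4 was therefore not resolved in stimulated brain. Gimap4 averaged 671 ± 257 TPM in unstimulated female brain (SD, n = 5), 639 ± 197 TPM in unstimulated male brain (n = 6), 671 ± 333 TPM in unstimulated young male brain (n = 5) and 749 ± 39.2 TPM in unstimulated spleen (n = 5). Gimap5, whose loss depletes T cells, was the least abundant in each of these 4 groups, at 9.02 ± 5.30, 33.1 ± 47.3, 20.8 ± 16.1 and 26.9 ± 2.25 TPM in that order. Unstimulated spleen resolved the order best: Gimap4 (712 to 803 TPM) lay above Gimap6 (365 to 477 TPM), and Gimap6 above Gimap3 (210 to 263 TPM), with no overlap between libraries. Gimap3, Gimap7 (146 to 242 TPM) and Gimap1 (121 to 203 TPM) overlapped their neighbours in the order. Gimap9 (64.0 to 78.7 TPM), Gimap8 (46.9 to 58.1 TPM) and Gimap5 (24.02 to 29.4 TPM) followed without overlap.

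**Figure D3:**
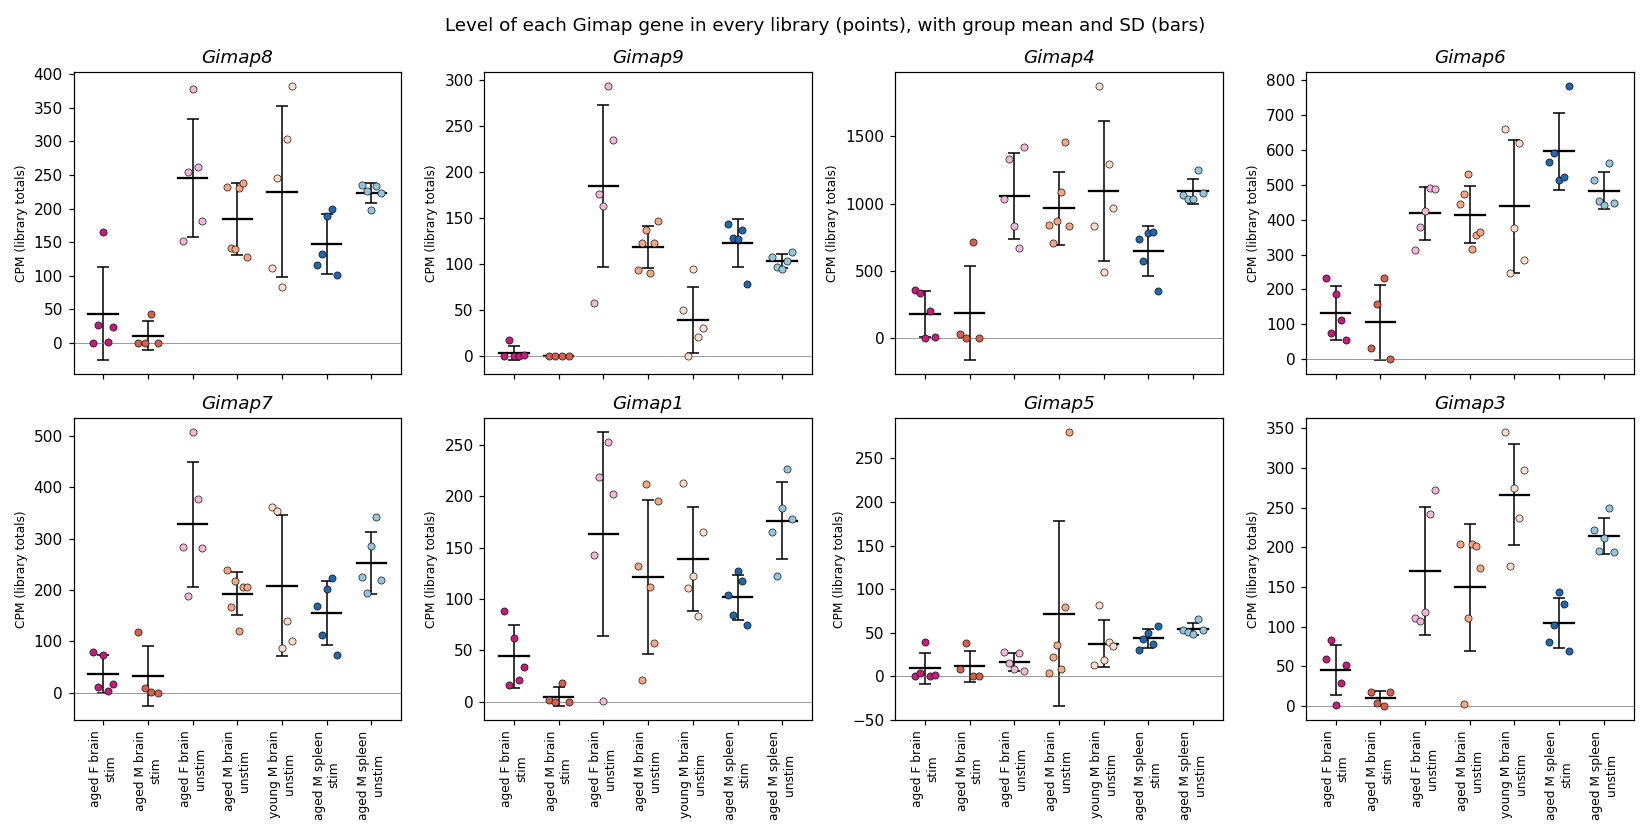
Level of each Gimap gene, in CPM of the library's total, in every library of the 7 groups (F, female; M, male; points), with the group mean (thick line) and SD (bars); panels have their own scales and follow the order of the cluster. Stimulated male brain has 16 of its 32 values at 0, and stimulated female libraries differ widely from each other for most genes, while unstimulated spleen libraries lie close together.

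How evenly the libraries of a group carried the members differed by group. The coefficient of variation of a member's CPM had a median of 98.3% over the 8 genes in stimulated female brain and of 182% over 7 genes in stimulated male brain, where Gimap9 was at 0 and has no such value. Genes of 10 to 1500 CPM had medians of 134% and 156% in these groups. It was 42.1% in unstimulated female brain, 28.5% in unstimulated male brain and 52.2% in unstimulated young male brain, against 81.2%, 87.8% and 98.3% over all such genes. It was 27.3% in stimulated spleen and 10.8% in unstimulated spleen, against 27.5% and 18.5%. The genes of 10 to 1500 CPM were not matched to the levels of the members. Whether members are more even than genes of their own level was therefore not tested. In stimulated brain some members averaged under 10 CPM, such as Gimap9 (3.83) and Gimap5 (8.77) in females and Gimap1 (5.03) and Gimap3 (9.93) in males. Single brain libraries nearly lacked a member that their group otherwise had. Values under 1/10 of the member's group median were 1 of 40 in unstimulated female brain, 1 of 48 in unstimulated male brain and 1 of 40 in unstimulated young male brain. How often other genes of similar level had such values was not counted. Gimap1, needed for the survival of mature lymphocytes, was at 0.902 CPM, or 6 counts, in replicate 15 of unstimulated female brain and at 143, 202, 219 and 253 CPM in the other 4. In replicate 15 the overlapping antisense transcript had 110 counts and the readthrough gene 28. Whether reads of Gimap1 were assigned to them was not tested. Gimap3, a copy of Gimap5 that resides in the endoplasmic reticulum, was at 2.91 CPM in replicate 8 of unstimulated male brain and at 111 to 204 CPM in the other 5. Gimap9 was at 0.257 CPM, or 4 counts, in replicate 3 of young male brain and at 20.6, 30.5, 50.0 and 94.3 CPM in the rest. Gimap5 went the other way in unstimulated male brain, with 281 CPM in replicate 12 and 3.24 to 79.6 CPM in the other 5. In both spleen groups no member of any library was under 10 counts.

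**Figure D4:**
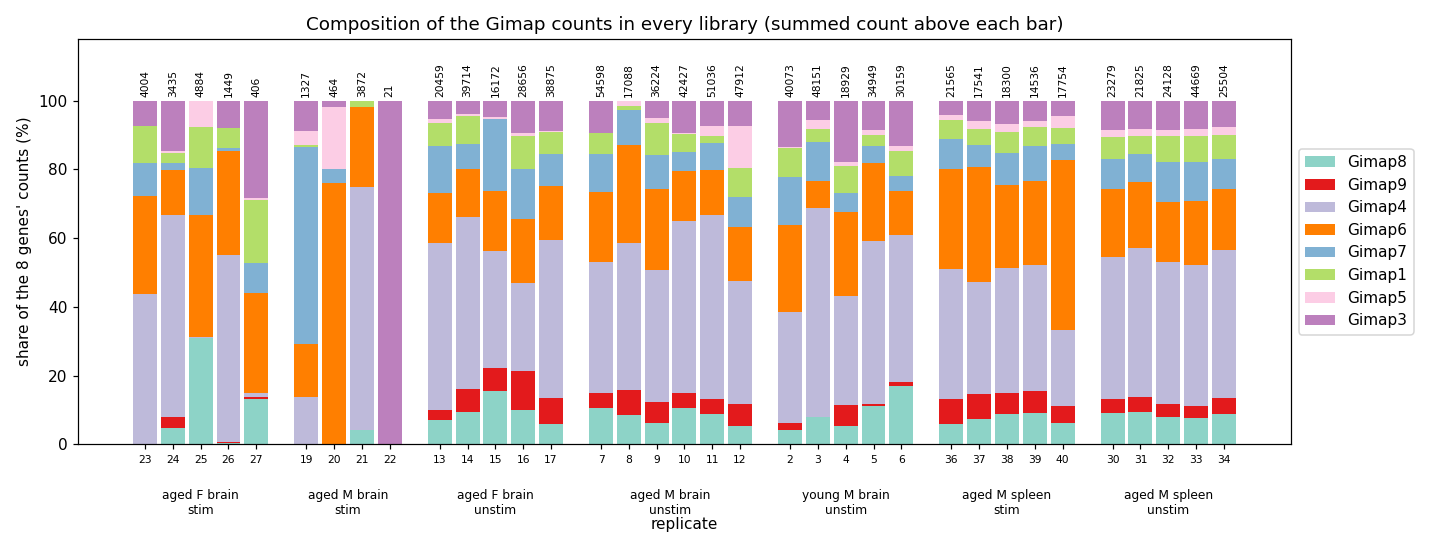
Share of the summed Gimap counts taken by each gene, in percent, with 1 bar for each library, grouped and labelled by replicate; genes are stacked in cluster order and the summed count stands above each bar. Gimap6 (orange) and Gimap9 (red) take larger shares in stimulated than in unstimulated spleen; stimulated brain bars rest on as few as 21 counts and differ from bar to bar.

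Spleen cells held for 2 h with PMA and ionomycin, set against unstimulated ones, were the comparison that the data resolve best. A holding time is recorded for the stimulated libraries only. In spleen and brain alike, time in culture and the agents therefore cannot be told apart. Relative to the other genes, on totals scaled by the trimmed mean of M-values (TMM), Gimap6 and Gimap9 rose in stimulated spleen and the other 6 members did not pass the test. Unscaled totals move both to the uncalled side and 5 of the other 6 to a lower call, while the fold changes of Gimap6 and Gimap9 were the 2 highest of the 8 on both scales. Gimap6, the GABARAPL2-binding member, had 689, 765, 600, 612 and 1169 TMM-scaled CPM in stimulated spleen replicates 36 to 40, against 404, 368, 357, 428 and 368 TMM-scaled CPM in unstimulated spleen replicates 30 to 34. All 5 stimulated libraries were above all 5 unstimulated ones, and replicate 40 was the highest. The log2 fold change was 0.99 ± 0.17 (SE; adjusted p = 0.00151, edgeR quasi-likelihood test with Benjamini-Hochberg adjustment), and 0.81 without replicate 40 (adjusted p = 0.000311). Gimap9 had 175, 166, 148, 161 and 116 TMM-scaled CPM in stimulated spleen, against 85.0, 78.8, 76.3, 79.1 and 93.7 in unstimulated spleen. The groups did not overlap, with replicate 40 here the lowest stimulated library, and the log2 fold change was 0.89 ± 0.13 (adjusted p = 0.00056, same test). DESeq2 and limma voom called both genes as well. A single edgeR fit of all 35 libraries, in which spleen and brain groups share 1 estimate of the spread for each gene, gave log2 fold changes of 1.02 and 0.93 and called neither (adjusted p = 1 for both). Of all 11107 genes tested, 18.7% were called in either direction, 12.6% higher and 6.12% lower, so 2 of 8 members called higher is a count from a background of 12.6%.

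Among the members that did not pass on TMM-scaled totals, Gimap3 had the lowest log2 fold change, -0.39 ± 0.16 (edgeR, adjusted p = 0.106). It averaged 130 ± 29.95 TMM-scaled CPM in stimulated spleen, against 170 ± 12.7 in unstimulated spleen (SD, n = 5 each). Without stimulated replicate 38 it passed at -0.47 (adjusted p = 0.0402). Gimap5 had the highest value of the 6, 0.37 ± 0.21 (adjusted p = 0.259). Gimap4 was at -0.13 ± 0.15, Gimap1 at -0.15 ± 0.16, Gimap7, which speeds its own GTP hydrolysis as a dimer, at -0.07 ± 0.23, and Gimap8, the largest GIMAP protein, at 0.04 ± 0.15. These 4 values were smaller than their standard errors. The median over the 8 members was -0.02, and over all genes tested it was -0.07.

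The calls in spleen depended on the scaling. With unscaled library totals, an alternative added after the data were seen, the median of all genes tested was -0.73 instead of -0.07. On that scale Gimap6 was at 0.30 ± 0.13 (adjusted p = 0.0842) and Gimap9 at 0.25 ± 0.16 (adjusted p = 0.222), both above 0 and not called. Gimap3 fell by 1.03 (adjusted p = 0.00141), Gimap1 by 0.80 (0.00521), Gimap4 by 0.76 (0.00683), Gimap7 by 0.70 (0.0496) and Gimap8 by 0.60 (0.0187) on the log2 scale. Of all genes tested, 39.4% were called lower and 4.71% higher on these totals.

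**Figure D5:**
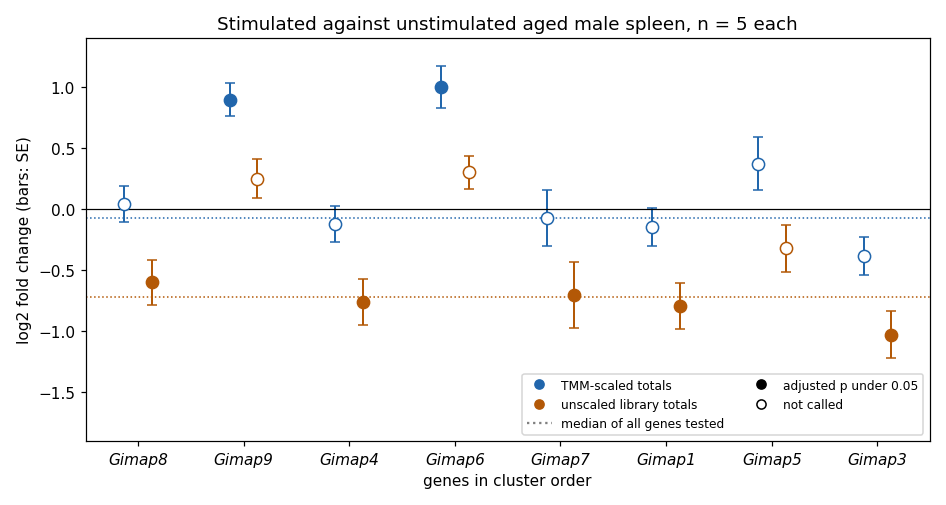
Log2 fold change of stimulated over unstimulated spleen for each Gimap gene, in cluster order, with its standard error, on TMM-scaled (blue) and unscaled (orange) library totals; filled points have an adjusted p under 0.05 and dotted lines mark the median of all genes tested. Gimap6 and Gimap9 are the 2 highest of the 8 on both scales.

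Shares within the family do not depend on the scaling of libraries, but a larger share of 1 member lowers the shares of the others. Gimap6 took 32.1% ± 10.5 of the family's counts in stimulated spleen, against 18.6% ± 0.909 in unstimulated spleen (SD, n = 5 each), with ranges of 24.1% to 49.5% and 17.7% to 19.9%. Gimap9 took 6.39% ± 1.03 in stimulated spleen, against 4.005% ± 0.420 in unstimulated spleen, again without overlap. Gimap4 took 33.04% ± 6.54 in stimulated spleen, against 42.04% ± 1.16 in unstimulated spleen, and Gimap3 took 5.41% ± 1.11, against 8.23% ± 0.314. Neither overlapped between the groups. Gimap1, Gimap5, Gimap7 and Gimap8 overlapped. The 49.5% of Gimap6 belonged to replicate 40, which also had the highest mitochondrial share of the stimulated spleen libraries, 20.8%, where the other 4 had 14.8% to 15.6%.

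Genes around the cluster were looked at for comparison. Within 200 kb of it GENCODE lists 32 other genes, 19 of them in the files and 6 of these abundant enough to be tested in spleen. None of the 6 was called, and none had an unadjusted p under 0.05. The readthrough gene that overlaps Gimap7, Gimap1 and Gimap5, listed in the files as RP24-315D19.2, had 10.3 CPM in stimulated spleen, against 14.6 CPM in unstimulated spleen, and the antisense transcript of Gimap1, listed as Gm3345, had 7.33 against 15.6 CPM. Gimap6 and Gimap9 overlap no annotated gene.

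Stimulated spleen cells carried the usual signs of activation, and the genes that GIMAP proteins are linked to moved both ways. Of 9 tested activation genes 8 rose, among them Nr4a1 (log2 fold change 9.15), Egr1 (7.88) and Ifng (7.38), with Irf8 at 0.75 (adjusted p = 0.145). Of 10 genes for partners that GIMAP proteins are reported to bind or work with, 3 rose, namely Gabarapl1, a relative of GABARAPL2, by 2.14 ± 0.53 (adjusted p = 0.0126), the survival gene Bcl2l1 by 1.76 ± 0.26 (0.000532) and the death gene Bcl2l11 by 1.35 ± 0.40 (0.0326). Bcl2, the founding survival gene of its family, fell by 1.196 on the log2 scale (SE 0.20, adjusted p = 0.00136). Gabarapl2 itself, the partner of GIMAP6, was at 0.39 ± 0.20 (adjusted p = 0.203). The median of this list was 0.28.

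Genes of lymphocyte quiescence, 17 in the list, gave 7 that rose and 4 that fell. The antiproliferative genes Btg2 (log2 fold change of 3.21) and Tob1 (2.07) and the lymph node homing receptor Ccr7 (2.50) rose, while the egress receptor S1pr1 (-1.38), its activator Klf2 (-1.01) and the IL-7 receptor gene Il7r (-0.84) fell. The list's median was 0.06. The interferon-inducible GTPases are other immune GTPase families, and of 17 tested 1 rose on TMM-scaled totals, Gbp4 (0.57), which on unscaled totals averaged 164 CPM in stimulated and 173 CPM in unstimulated spleen, and 5 fell, among them Tgtp1 (-2.36), Iigp1 (-2.26) and Tgtp2 (-1.67). Their median was -0.44. Markers of other lymphoid cells were present in both spleen groups: summed B cell markers lay at 184 to 362 CPM in stimulated spleen, against 219 to 728 CPM in unstimulated spleen. Of the 6 B cell markers 4 rose on TMM-scaled totals. Their part in the values of the Gimap genes was not tested.

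Brain residence was examined in unstimulated cells, where male brain was set against male spleen. No member was called, and the groups overlapped in every member on unscaled CPM; 7.37% of 11040 genes were called. DESeq2 and limma voom also called no member, and 2 members had an unadjusted p under 0.05. Gimap9 had 91.0, 93.4, 123, 124, 137 and 147 CPM in unstimulated male brain, against 94.6, 96.9, 104, 108 and 114 CPM in unstimulated spleen. On TMM-scaled totals every brain library was above every spleen library, with a log2 fold change of 0.77 ± 0.31 (unadjusted p = 0.0246, adjusted p = 0.198). Gimap4 had 707 to 1456 CPM with a median of 853 in brain, against 1031 to 1251 with a median of 1064 in spleen, and a log2 fold change of 0.37 ± 0.17 (unadjusted p = 0.0411, adjusted p = 0.27). Gimap3, Gimap1 and Gimap7 were at -0.01 ± 0.59, 0.01 ± 0.46 and 0.17 ± 0.26, Gimap8 and Gimap6 at 0.27 ± 0.25 and 0.36 ± 0.21, and Gimap5 at 0.95 ± 0.86. Of the 8 values 7 were above 0, with a median of 0.31, and the median of all genes tested was also 0.31. On unscaled totals 5 of these 7 turned below 0.

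In that comparison the other lists had members that passed. Bcl2 rose in brain by 1.72 ± 0.35 (adjusted p = 0.00485), with a mean of 161 CPM in brain, against 72.5 CPM in spleen, and was the 1 of 10 partner genes called. In the quiescence list the glucocorticoid-induced Tsc22d3 (2.56) and Btg2 (1.66) rose, and none of the 17 fell. Among 16 tested interferon-inducible GTPases 6 rose, with Gbp10 (3.89), Gbp6 (2.47) and Gbp4 (1.71) the most. Activation genes were higher too in unstimulated brain than in unstimulated spleen, 4 of 9 tested, among them Nr4a1 (7.53) and Egr1 (5.13). Summed microglia markers, 10 genes, lay at 2.04 to 422 CPM in brain, against 83.2 to 133 CPM in spleen. Endothelial markers were summed as well, since endothelial cells can also express Gimap genes. They lay at 2.08 to 26.5 CPM in brain, with Cldn5, Flt1, Tek, Esam and Tie1 at 0, against 37.6 to 51.9 CPM in spleen. Summed B cell markers lay at 0.400 to 28.9 CPM in brain, against 219 to 728 CPM in spleen. Markers of CD4 and regulatory T cells lay at 0.194 to 26.05 CPM, against 53.4 to 103 CPM. Neutrophil and monocyte markers reached 415 CPM in brain and 38.7 CPM in spleen. The part of these cells in the values of the Gimap genes was not tested.

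Age was compared in unstimulated male brain, with aged against young mice. None of the 8068 genes tested was called by edgeR's quasi-likelihood test (0%), with 374 genes at an unadjusted p under 0.05, 72 called by DESeq2 and 1 by limma voom. None of the 8 members was called by any of the 3 tools. Gimap9 had 91.0 to 147 CPM with a median of 123 in aged brain, against 50.0, 0.257, 94.3, 20.6 and 30.5 CPM in young brain. All but 1 of the young libraries lay below the lowest aged one, and the log2 fold change was 1.53 ± 0.90 (unadjusted p = 0.104, adjusted p = 0.994). Gimap3 had 2.91 to 204 CPM with a median of 188 in aged brain, against 346, 176, 275, 237 and 297 CPM in young brain, with a log2 fold change of -1.0 ± 0.62; the groups did not overlap on TMM-scaled totals (unadjusted p = 0.123, adjusted p = 0.994). The other 6 lay between -0.42 for Gimap8 and 0.72 for Gimap5, each with overlapping groups. Summed B cell markers lay at 0.400 to 28.9 CPM in aged brain, against 7.71 to 144 CPM in young brain. Markers of CD4 and regulatory T cells lay at 0.194 to 26.05 CPM, against 1.35 to 107 CPM. Microglia markers lay at 2.04 to 422 CPM, against 20.1 to 364 CPM. The part of these cells in the values of the Gimap genes was not tested.

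Sex was compared in unstimulated aged brain, with females against males, and no member was called. Of 8691 genes 0.15%, or 13 genes, were called (4 to 15 with 1 library left out), and DESeq2 and limma voom called no member either. Gimap5 alone had an unadjusted p under 0.05, with 27.4, 14.8, 7.81, 26.9 and 6.12 CPM in female brain, against 3.24 to 281 CPM with a median of 29.1 in male brain. The groups overlapped, 281 CPM belonged to replicate 12, and the log2 fold change was -2.44 ± 1.11 (unadjusted p = 0.0414, adjusted p = 0.999), or -1.16 without that replicate. Gimap7 had the highest value, 0.47 ± 0.36, with 327 ± 121 CPM in female brain and 193 ± 42.4 CPM in male brain (SD, n = 5 and 6). The remaining 6 lay between -0.31 and 0.32. The partner, quiescence and interferon-inducible GTPase lists had no gene called by edgeR in 3 of the brain comparisons: age, where 2 of 43 tested genes had an unadjusted p under 0.05, sex without stimulation (4 of 42) and stimulation in females (0 of 35). Single list genes were not looked up with the other tools.

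Stimulation of male brain cells was followed by lower values of all 8 members, in libraries where the median gene was also lower. Of 7540 genes tested 36.4% were called lower and the median log2 fold change was -2.62; the median of the 8 members was -2.75, with 1 called. Gimap9 was that gene, with 0 counts in all 4 stimulated libraries, against 91.0 to 147 CPM with a median of 123 in the 6 unstimulated ones (adjusted p = 0.00549). Against a floor of 3 counts in each stimulated library it was at least 92-fold lower in CPM of library totals. Mitochondrial genes took means of 56.3% of those totals with stimulation and 9.88% without. No bound is given on totals without them. The floor covers counting error only. Other members differed from library to library. Gimap6 had 32.4, 157, 232 and 0 CPM in stimulated male brain replicates 19 to 22, against 315 to 531 CPM in the 6 unstimulated libraries. On TMM-scaled totals, which the test used, these groups overlapped, with a stimulated maximum of 409 and an unstimulated minimum of 276. The log2 fold change was -1.31 ± 1.25 (edgeR, adjusted p = 0.465). Gimap4 had 28.5, 0, 711 and 0 CPM, against 707 to 1456 CPM, and overlapped only through replicate 21. Gimap8 was detected only in replicate 21, at 43.1 CPM, and Gimap7 was at 119 CPM in replicate 19 and at most 8.48 CPM in the other 3. Gimap1 (-3.63 ± 1.73, adjusted p = 0.112) and Gimap3 (-3.49 ± 1.60, adjusted p = 0.1) were not called. Without replicate 21 the members called were 4: Gimap9, Gimap1 at -7.42 (adjusted p = 0.0146), Gimap4 at -6.35 (adjusted p = 0.0173) and Gimap8, which was at 0 in the 3 libraries left. Without replicate 19 they were 2. In replicate 22, with 1.16 M counts, the 8 genes together had 21 counts, all of them Gimap3. In all, 16 of the 32 values of members in stimulated male brain were 0. Of the other lists, 4 of 8 tested partner genes, 5 of 16 quiescence genes and 6 of 16 interferon-inducible GTPases were called lower there.

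In stimulated female brain no member was called, where 6.09% of 6305 genes were, or 384 genes (49 to 596 with 1 library left out). DESeq2 and limma voom each called 1 member, Gimap9, and 1 member had an unadjusted p under 0.05. Gimap9 had 0.203, 17.8, 0, 0.253 and 0.902 CPM in stimulated female brain replicates 23 to 27, against 58.4, 176, 163, 294 and 235 CPM in unstimulated female brain. All 5 stimulated libraries lay below all 5 unstimulated ones, and the log2 fold change was -4.04 ± 1.67 (adjusted p = 0.23, edgeR quasi-likelihood test). Without replicate 24 it was called at -8.01 (adjusted p = 0.034). Gimap7 had 78.2, 10.9, 73.3, 3.29 and 15.8 CPM in stimulated female brain, against 188 to 508 CPM in unstimulated female brain (-1.82 ± 0.98, adjusted p = 0.411). Gimap6 was detected in all 5 stimulated libraries, at 53.2 to 233 CPM, against 312 to 490 CPM in unstimulated female brain. The log2 fold change on TMM-scaled totals, where the groups overlapped, was -0.33 ± 0.64 (edgeR, adjusted p = 0.873). On these totals 7 of 8 members were below 0, with a median of -0.74, and the median of all genes tested was -0.41. On unscaled totals that median was -1.81, and Gimap6 was at -1.71 ± 0.67 (adjusted p = 0.13), Gimap7 at -3.21 ± 0.98 (0.0579) and Gimap9 at -5.62 ± 1.72 (0.058), with no member called. Summed markers of choroid plexus, neurons and glia lay at 184 to 698 CPM in stimulated female brain, against 52.3 to 105 CPM in unstimulated female brain, and in males at 79.5 to 1018.5 CPM in stimulated brain, against 64.5 to 697 CPM in unstimulated brain. Summed microglia markers had a median of 0 in both stimulated brain groups, with a maximum of 120 CPM in females and 0.156 CPM in males. They lay at 4.51 to 124 CPM in unstimulated female brain and 2.04 to 422 CPM in unstimulated male brain. The part of these cells, and of the mitochondrial share, in the values of the Gimap genes was not tested.

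Set directly against stimulated spleen, stimulated male brain had 1 member called lower, Gimap9, again with 0 counts in all 4 brain libraries, against 144, 129, 127, 138 and 78.0 CPM in stimulated spleen (adjusted p = 0.000436). Against the same floor of counting error it was at least 95-fold lower in CPM of library totals. Mitochondrial genes took means of 56.3% of those totals in stimulated male brain and 16.3% in stimulated spleen. Of 9135 genes 46.7% were called lower, with a median over all genes of -3.02 and over the members of -2.18. Gimap1 and Gimap3 were at -3.22 ± 1.66 and -2.87 ± 1.28 (adjusted p = 0.149 and 0.0975). Gimap4 was at -0.67 ± 1.91, and without replicate 21 it was called at -5.55 (adjusted p = 0.0419). The number of members called was 5 without replicate 21 and 2 without replicate 19. The sexes did not differ by a called gene after stimulation: of 3159 genes tested in stimulated brain, females against males, 0% were called, with 158 at an unadjusted p under 0.05, 90 called by DESeq2 and 0 by limma voom. No member had an unadjusted p under 0.05 or was called by any of these tools. Gimap9 was too low to be tested there, and of the 7 tested members the largest value was that of Gimap1, 3.0 ± 1.95 (adjusted p = 0.996), with 44.3 ± 30.5 CPM in female brain and 5.03 ± 9.14 CPM in male brain (SD, n = 5 and 4).

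Whether the response to stimulation differed between male brain and male spleen was tested as an interaction over the 4 groups. All 8 members had a value below 0, with a median of -3.03, where the median of 12117 genes was -4.04 and 35.7% were called lower. Gimap9 was called (adjusted p = 3.92e-07): with stimulation it was at 0 counts in brain while its mean in spleen was 123 CPM with stimulation and 104 CPM without. Gimap1 was called as well, at -3.60 ± 1.42 (adjusted p = 0.0486). That call was lost in 16 of 20 fits that left out 1 library, with adjusted p-values between 9.96e-05 and 0.0774, and with DESeq2 size factors (adjusted p = 0.0879). Gimap6, which rose in spleen on TMM-scaled totals, was at -2.43 ± 1.17 (adjusted p = 0.104). Without stimulated brain replicate 21 the members called were 6. Gimap9 is the lowest of the 8 at its bound as well as at its fitted value in these brain comparisons, so the medians do not depend on it. These comparisons share groups of libraries with each other and are not independent.

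The genes whose group means followed the family's summed level most closely were found over the 7 groups by the root mean square difference of centred log2(CPM + 1) values, among 4658 genes with a mean of at least 20 CPM. The closest were Nono, an RNA-binding protein gene (0.113), the RNA helicase gene Ddx39 (0.15), the septin gene Sept1 (0.156), the stress granule gene G3bp1 (0.193), Ptprc, which encodes the leukocyte surface phosphatase CD45 (0.196), and the splicing factor gene Snw1 (0.201). The median over all genes ranked was 1.07. Ptprc averaged 365 and 292 CPM in stimulated female and male brain, 2710, 2056 and 2310 CPM in unstimulated female, male and young male brain, and 2207 and 2451 CPM in stimulated and unstimulated spleen.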

How the data were processed

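Sorted mouse CD8 T cells were sequenced in 35 libraries of 7 groups, with each library's group taken from its labels. Per the submitters' processing notes, Bowtie2 2.2.0 and RSEM 1.2.12 were used with mm10. The annotation release is not given in the sources used here, nor is strand use. Each library has a table whose columns are, per the file headers, RSEM's expected counts, TPM and FPKM. A deposited series table holds whole-number counts of 38924 genes; none is more than 0.5 from the expected count. FPKM values were not used.

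Counts were tested with edgeR 4.0.16 in R 4.3.3 (filterByExpr with a minimum count of 10, TMM scaling within each comparison, robust quasi-likelihood fit), 1 fit for each of 9 comparisons, with Benjamini-Hochberg adjustment over all genes tested and a threshold of 0.05. limma 3.58.1 (voom) and DESeq2 1.42.0 were alternatives, and the fits were tested on simulated data. Levels over the 7 groups are CPM of library totals. The plan was to scale them by TMM over 35 libraries; the roles were exchanged after the factors had been seen. Genes of a list are named where they passed the test at a mean CPM of 5 or more, at most 3 for each direction, and any other named gene was chosen after its values were seen. The members and lists were chosen with earlier results of these data known. All 71 pairs of libraries within groups differed by more than sampling noise, with chi-square at least 13.8 times its degrees of freedom.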

Additional observations from a re-analysis of the deposited data

Results flagged for a closer look

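In 62 sets of values, 1 for each member or the summed level in a group, the highest or the lowest library was tested for a gap to the others, and 11 stood apart. A rate of about 1 in 20 by chance would need independent sets without many zeros. These sets share libraries, and 16 of 32 member values in stimulated male brain were 0, so no excess can be read from 11. In stimulated male brain, replicate 21 stood apart for Gimap1 (18.7 CPM, others 0 to 1.41), Gimap4 (711 CPM, others 0 to 28.5) and Gimap8 (43.1 CPM, others 0), and replicate 19 for Gimap7 (119 CPM, others 0 to 8.48). In stimulated female brain, replicate 25 stood apart for Gimap5 (39.7 CPM, others 0 to 3.30) and Gimap8 (165 CPM, others 0 to 27.2), and replicate 24 for Gimap9 (17.8 CPM, others 0 to 0.902). In unstimulated male brain, replicate 12 stood apart for Gimap5 (281 CPM, others 3.24 to 79.6). In stimulated spleen, replicate 40 was low for Gimap9 (78.0 CPM, others 127.0 to 144). In unstimulated spleen, replicate 33, the most deeply sequenced of its group, was high for Gimap4 (1251 CPM, others 1031 to 1079) and Gimap5 (65.3 CPM, others 48.8 to 53.2).

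The response to stimulation differed between male brain and male spleen for Gimap9 (adjusted p = 3.92e-07) and Gimap1 (adjusted p = 0.0486) by the interaction term of edgeR's quasi-likelihood test, among 35.7% of all genes called in that direction. The Gimap1 call was lost in 16 of 20 fits that left out 1 library, with DESeq2 size factors (0.0879), with no low-count filter (0.0725), in the fit of all 35 libraries (0.0644) and without the 2 thinnest stimulated male brain libraries (0.0824).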

How the results depend on the processing

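No paired analysis was possible because the groups compared share no replicate numbers. Of 1470 values of members under other settings, 74 had the other sign, 1 of them past the threshold (Gimap8 in spleen on unscaled totals). The cause of these differences was not tested.

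The number of Gimap genes called in spleen stimulation, 2 in the report, was 5 on unscaled totals and 0 in a fit of all 35 libraries. In male brain stimulation, 1 in the report, it was 2 on unscaled totals, 3 with DESeq2, 7 with voom and 4 in the fit of all 35. In female brain stimulation, 0 in the report, it was 1 with DESeq2, 1 with voom and 1 in the fit of all 35, and 0 among hyphenated titles alone (Gimap9 -3.54, adjusted p = 0.223). Between stimulated brain and spleen, 1 in the report, it was 3 with DESeq2, 8 with voom and 3 in the fit of all 35. Between the sexes in stimulated brain, 0 in the report, it was 1 in the fit of all 35. For tissue by stimulation, 2 in the report, it was 1 with DESeq2 size factors, 7 with voom, 1 with no low-count filter, 1 in the fit of all 35 and 1 without the 2 thinnest libraries. Leaving out 1 library gave 2 to 3 in spleen, 1 to 4 in male brain, 0 to 1 in female brain, 1 to 5 between stimulated brain and spleen, 1 to 6 for tissue by stimulation and 0 to 0 in the other 4 comparisons.

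Log2 fold changes that turned were as follows. In spleen stimulation Gimap5 was -0.32 and Gimap8 -0.60 on unscaled totals, and Gimap7 was 0.11 with voom. Between unstimulated brain and spleen, unscaled totals gave Gimap7 -0.39, Gimap6 -0.22, Gimap4 -0.18, Gimap8 -0.27 and Gimap1 -0.54, and voom gave Gimap5 -0.46 and Gimap1 -0.09. There Gimap3 was 0 with no filter and 0.17 in the fit of all 35, and Gimap1 was -0.01 with a filter of 1 CPM. For age, voom gave Gimap5 -0.29 and Gimap7 0.20. Between the sexes unstimulated, Gimap3 was 0.04 with DESeq2 size factors, 0.04 with DESeq2, 0.03 with the filter of 1 CPM and 0.19 on unscaled totals, where Gimap6 was 0.02 and Gimap4 0.13. In the same comparison voom gave Gimap9 -0.10 and Gimap8 -0.27, and the fit of all 35 gave Gimap8 -0.01 and Gimap1 -0.06. In female brain stimulation Gimap5 was -0.96 on unscaled totals and -2.24 with voom. Between stimulated brain and spleen Gimap4 was 0.24 without the 2 thinnest libraries. Between the sexes stimulated, Gimap5 was -0.42 with DESeq2 size factors, -0.41 on unscaled totals, -0.42 with DESeq2 and -0.33 with voom, and Gimap4 was 2.74 with voom. Without the 2 thinnest libraries Gimap7 was -0.29 and Gimap6 -0.15 there.

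Ranges that crossed 0 when 1 library was left out were, in spleen stimulation, Gimap7 -0.19 to 0.09, Gimap4 -0.17 to 0.01 and Gimap8 -0.04 to 0.14. Between unstimulated brain and spleen they were Gimap3 -0.12 to 0.25, Gimap5 -0.30 to 1.2 and Gimap1 -0.26 to 0.22, and for age Gimap5 -0.55 to 1.42, Gimap7 -0.54 to 0.06, Gimap6 -0.29 to 0.04 and Gimap4 -0.58 to 0.05. Between the sexes unstimulated they were Gimap3 -0.35 to 0.04, Gimap8 -0.16 to 0.26 and Gimap1 -0.14 to 0.39, in female brain stimulation Gimap5 -2.47 to 0.84, and between the sexes stimulated Gimap5 -0.30 to 2.06, Gimap6 -0.05 to 1.45 and Gimap4 -0.81 to 4.58.

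Counts of all genes called that moved by over 1.5 times were, in spleen stimulation, 4900 on unscaled totals and 53 in the fit of all 35, against 2080. Between unstimulated brain and spleen they were 1546 with voom and 1677 with no filter, against 814, and for age 72 with DESeq2, 1 with voom, 25 with no filter, 3 with the filter of 1 CPM and 1 in the fit of all 35, against 0. Between the sexes unstimulated they were 6 with DESeq2 size factors, 2 on unscaled totals, 23 with DESeq2, 43 with voom, 29 with no filter and 6 with the filter of 1 CPM, against 13. In male brain stimulation they were 1367 with the filter of 1 CPM, 5018 in the fit of all 35 and 1161 without the 2 thinnest libraries, against 2875. In female brain stimulation they were 875 with DESeq2, 1399 with voom, 704 with no filter, 603 with the filter of 1 CPM, 2549 in the fit of all 35 and 135 among hyphenated titles, against 384. Between the sexes stimulated they were 90 with DESeq2, 21 with no filter, 8 with the filter of 1 CPM, 2560 in the fit of all 35 and 1 without the 2 thinnest libraries, against 0. For tissue by stimulation voom gave 2773, against 4577. With 1 library left out, the count moved by over 1.5 times in 7 of 10 fits of female brain stimulation (49 to 596), in 8 of 11 between the sexes unstimulated (4 to 15), and to 1 gene in 1 fit each for age and between the sexes stimulated.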
